A study of Mus musculus with 4 samples.

Results

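The genes of glycolysis and of the response to low oxygen were followed in single-cell RNA sequencing libraries of the mouse Mesp1 lineage. The set held 35 named genes, and each symbol matched 1 of the 27998 genes of the deposited tables. They covered 2 glucose transporters, 17 enzymes from hexokinase to lactate dehydrogenase, 2 pyruvate dehydrogenase kinases, 2 lactate transporters, 10 genes of the hypoxia response and 2 alpha subunits of the hypoxia-inducible factor (HIF). All 4 libraries came from Swiss Webster embryos of the genotype Mesp1Cre;Rosa26-GFPflox/+, in which Cre made from the Mesp1 gene in early mesoderm turns on GFP permanently in those cells and their descendants. Live GFP-positive cells were sorted from pooled embryos, so animals cannot be told apart within a library. The early libraries (E8.0 and E8.25, in days of embryonic development) came from the upper part of the body and the late ones (E9.5 and E10.5) from the pharyngeal apparatus with the heart. Each stage was 1 library, stage and dissected region changed together, and no comparison between stages was tested.

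Glycolysis splits glucose into pyruvate and yields ATP without oxygen, and lactate dehydrogenase then turns pyruvate into lactate so that the pathway can go on. When oxygen is low, HIF alpha subunits escape destruction by prolyl hydroxylases and raise the transcription of glucose transporters, most glycolytic enzymes, kinases that shut pyruvate out of the mitochondria, and lactate exporters. Embryos of this age develop in low oxygen and rely on glycolysis before the circulation is established, and heart muscle later turns towards respiration.

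Levels are given in CPM, the UMIs (distinct captured transcripts) of a gene per 1000000 UMIs of the cells named, so that a level is a share and moves when other genes take more of the total. After removal of poor cells and doublets, 7118 cells of E8.0, 2884 of E8.25, 3921 of E9.5 and 7525 of E10.5 were kept, with a median of 15205 to 35216 UMIs per cell and 1.21% to 2.60% of UMIs from mitochondrial genes. Cells were split by marker genes outside the set into 4 compartments. The sarcomere compartment (contractile genes such as Tnnt2) held 447, 89, 779 and 452 cells, from the earliest to the latest library, the order used for every set of 4 values that follows. The endothelial compartment (such as Pecam1 and Cdh5) held 589, 197, 223 and 394 cells, and blood (globins with erythroid genes) 157, 322, 3 and 1026. The remaining 5917, 2273, 2892 and 5557 cells are called other mesoderm, and 7 mesoderm markers together reached 393 to 544 CPM there. The summed level of 5 neural crest markers in other mesoderm was 30.7 CPM at E8.25 and 3.24 to 6.59 in the other libraries. Other mesoderm held globin transcripts at 0.0260% to 2.70% of the level in blood. Libraries shared 16 to 88 cell barcodes per pair. Blood at E9.5 had too few cells for any comparison.

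The glycolytic enzymes took their largest share of all UMIs at E8.25 and their smallest at E10.5. Over all cells, the 17 enzymes together made up 1.47%, 1.88%, 1.39% and 0.684% of UMIs in the 4 libraries. In other mesoderm the shares were 1.46%, 1.95%, 1.34% and 0.814%, a 2.40-fold span between E8.25 and E10.5. In the sarcomere compartment they were 1.58%, 1.73%, 1.64% and 1.02%, a 1.70-fold span over the same stages. The endothelial shares were 1.499%, 2.003%, 1.12% and 0.712%, and the blood shares at E8.0, E8.25 and E10.5 were 1.45%, 1.53% and 0.168%. The sarcomere compartment was thus below other mesoderm at E8.25 and above it in both late libraries. The sum of the 10 hypoxia response genes followed the same order of stages over all cells (829.6, 1113, 665 and 322 CPM) and in other mesoderm (827, 1189, 589.8 and 361). Higd1a was the largest part of it (223 to 688 CPM in other mesoderm), and not every gene followed this order. In the sarcomere compartment the sum of these genes was highest at E9.5 instead (838, 884, 968 and 486). The 95% Poisson interval of the hypoxia sum in other mesoderm was 583 to 596 at E9.5, the shallowest library, and covers counting error only. The spread between embryos of 1 stage was not measured.

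**Figure D1:**
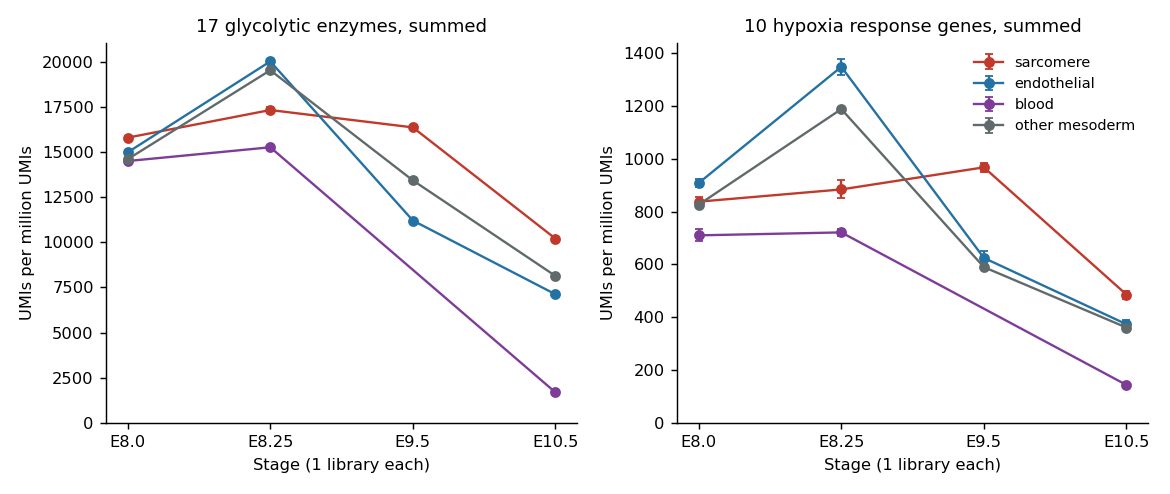
CPM (vertical axes, from 0) of the 17 glycolytic enzymes (left) and the 10 hypoxia response genes (right) by stage in the 4 compartments. Points are single libraries, bars are 95% Poisson intervals, and blood at E9.5 is left out. Enzyme sums peak at E8.25 in all 4 compartments and are lowest at E10.5, with the steepest drop in blood and the flattest line in the sarcomere compartment.

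Glucose entry differed widely between stages. Slc2a1 encodes GLUT1, the main glucose transporter of embryonic cells, and its level in other mesoderm was 317 CPM at E8.0 and 372 at E8.25, then 82.5 at E9.5 followed by 36.1 at E10.5. Slc2a3, which encodes the high-affinity transporter GLUT3, stood at 71.8 CPM at E8.0 and 114 at E8.25, then 17.99 at E9.5 followed by 6.49 at E10.5 there. Both early libraries were above both late ones for each gene, and E10.5 was 8.77-fold below E8.0 for Slc2a1 and 11.1-fold below it for Slc2a3. In the sarcomere compartment the same step was smaller, at 2.13-fold for Slc2a1 (377, 472, 245 and 177 CPM over the 4 stages) and 4.79-fold for Slc2a3 (60.1, 79.9, 34.6 and 12.5). Hexokinase then traps glucose in the cell as its phosphate. Hk2, the form regulated by growth and low oxygen in many tissues, followed the transporters in other mesoderm with 109, 136, 50.1 and 31.2 CPM. Hk1, the form found in most adult tissues, was low in other mesoderm and not lower at late stages (3.63, 6.81, 6.65 and 8.08).

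The next steps mostly differed less. Pfkl, the liver form of phosphofructokinase, the enzyme that commits sugar to glycolysis, was at 263, 277, 222 and 111 CPM in other mesoderm over the 4 stages, with only E10.5 set apart. Pfkp, the platelet form, was at 11.4, 19.7, 4.24 and 2.47, so that both late libraries were below both early ones by 2.68-fold or more. Pfkm, the muscle form, was at 9.53, 11.97, 14.0 and 13.0. Gpi1, which turns glucose phosphate into fructose phosphate, stood at 188, 257, 253 and 179, within 1.43-fold over the 4 libraries.

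Among the enzymes that split and oxidise the sugar, Aldoa (aldolase A) was at 1525 CPM at E8.0 and 2041 at E8.25, then 1241 at E9.5 followed by 636 at E10.5 in other mesoderm, and the minor aldolase gene Aldoc at 9.32, 6.17, 2.40 and 1.36. Tpi1 (triose phosphate isomerase) stood at 1019, 1495, 751 and 518 and Gapdh, which makes NADH, at 2336, 3460.4, 2385 and 2020.5. Both were highest at E8.25 and lowest at E10.5, and Gapdh at E9.5 was close to its level at E8.0. Pgk1 and Pkm make the ATP of the lower part of the pathway. Pgk1 was at 275, 358, 179 and 145 and Pkm at 2606, 3284, 2288 and 1321. Pgam1 (phosphoglycerate mutase) stood at 1491, 1703, 1087 and 679, and Eno1, the widely expressed enolase, at 1732, 2531, 2122 and 936. All 4 of these genes had their highest level at E8.25 and their lowest at E10.5. Eno3, the muscle enolase, had another order, with 47.7, 91.2, 161 and 112, the lowest value at E8.0 and the highest at E9.5. Near-identical copies can take reads from Eno1 and Pgk1. Over all cells, the counts of Eno1b were 8.05%, 2.62%, 1.83% and 9.01% of those of Eno1 in the 4 libraries. Those of Pgk1-rs7 were 4.08%, 1.16%, 1.29% and 4.59% of those of Pgk1. Both shares were larger at E8.0 and E10.5 than at E8.25 and E9.5, so the values of both genes are uncertain, and unequally so between libraries. Reads that matched a gene and its copy alike were not measured.

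The lactate dehydrogenase genes had opposite orders of stages. Ldha encodes the muscle-type subunit that favours lactate, and its level in other mesoderm was 2932 CPM at E8.0 and 3830.3 at E8.25, then 2514 at E9.5 followed by 1185 at E10.5. Ldhb encodes the heart-type subunit, and stood at 45.4 CPM at E8.0 and 29.3 at E8.25, then 153 at E9.5 followed by 239 at E10.5. Both late libraries were above both early ones for Ldhb, by at least 3.36-fold, while Ldha at E10.5 was below every other library. The order of Ldhb was the same over all cells (44.2, 25.2, 162 and 177) and in the sarcomere compartment (68.4, 69.0, 235 and 301) apart from the 2 early values, which were alike in the latter. Lactate leaves the cell through Slc16a3 (MCT4), at 267, 341, 167 and 64.9 in other mesoderm, and passes either way through Slc16a1 (MCT1), at 57.5, 62.1, 32.4 and 25.7. Both early libraries exceeded both late ones for these transporters, by at least 1.60-fold and 1.77-fold. Of the pyruvate dehydrogenase kinases, which hold pyruvate back from respiration, Pdk1 stood at 33.2, 62.4, 34.7 and 18.6 and Pdk3 at 49.4, 58.5, 62.2 and 57.1. Pdk3 varied within 1.26-fold over the 4 libraries, and Pdk1 at E8.25 was above the rest.

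Among the hypoxia response genes, Ndufa4l2, a HIF target that lowers respiratory activity, varied most in other mesoderm, with 35.8 CPM at E8.0 and 81.9 at E8.25, then 8.74 at E9.5 followed by 2.40 at E10.5. E8.25 was 2.29-fold above E8.0 and E10.5 was 3.65-fold below E9.5. The genes for mitochondrial proteins Bnip3, a receptor for the removal of mitochondria, and Higd1a stood at 136, 228, 131 and 55.3 and at 509, 688, 326 and 223 CPM. Ak4, a mitochondrial adenylate kinase, was at 24.1, 34.2, 14.6 and 6.10. These 3 genes were highest at E8.25 and lowest at E10.5. Egln1 and Egln3 encode prolyl hydroxylases that mark HIF alpha for destruction. Egln1 was at 16.5, 23.3, 16.3 and 14.0 and Egln3 at 16.2, 8.09, 4.43 and 4.01, and Egln3 had its highest value at E8.0. P4ha1, a subunit of collagen prolyl hydroxylase, was at 63.3, 85.9, 65.9 and 38.1 and Ankrd37, an ankyrin repeat gene, at 20.4, 30.1, 20.8 and 14.0. Ndrg1, a stress-regulated gene, was at 5.18, 8.65, 2.38 and 3.30. Car9, which encodes a carbonic anhydrase at the cell surface and is a usual marker of hypoxic cells, was near the limit of these libraries. Its level in other mesoderm was 0.409, 0.842, 0.575 and 0.514 CPM, with a 95% Poisson interval of 0.304 to 0.537 at E8.0 and 0.652 to 1.07 at E8.25.

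Of the HIF subunits themselves, only Hif1a was well detected in other mesoderm, and it differed little between stages. Hif1a was at 73.8 CPM at E8.0 and 51.5 at E8.25, then 60.4 at E9.5 followed by 62.1 at E10.5, within 1.43-fold, with its lowest value at the stage where most of the set was highest. Epas1, which encodes HIF-2 alpha, was at 1.75, 1.65, 0.652 and 0.379 CPM there, with a 95% Poisson interval of 0.258 to 0.538 at E10.5. HIF alpha proteins are controlled mainly by their breakdown, which transcript counts do not show.

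**Figure D2:**
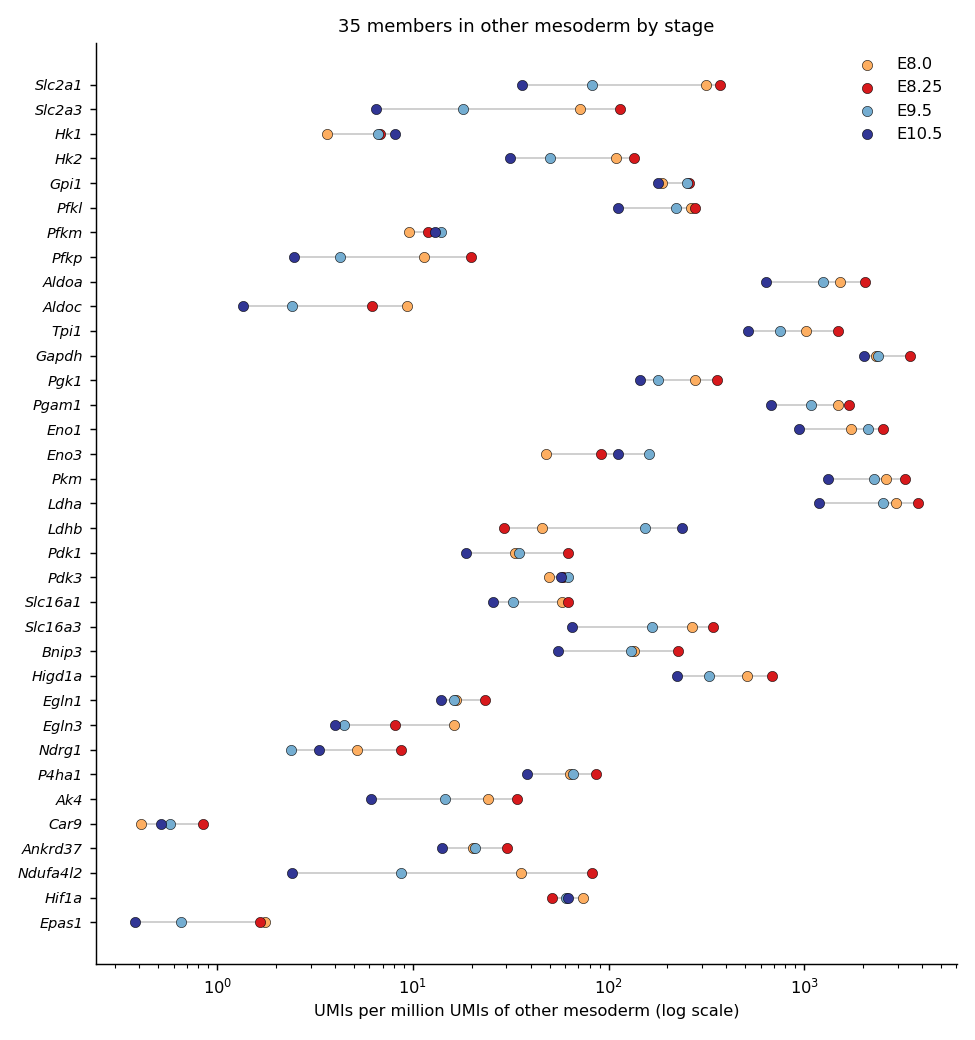
CPM in other mesoderm (horizontal axis, log scale) for the 35 genes (in pathway order from the top), 1 point per library coloured by stage, with a grey line over the range of each gene. For most genes the E10.5 point is leftmost and the E8.25 point rightmost, while Ldhb and Eno3 have the early libraries on the left and Pdk3 and Hif1a have all 4 points within 1.26-fold and 1.43-fold.

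Counted by a common rule, the set held more genes that were lower at late stages than genes that were higher. Of the 35 genes, 31 reached a mean of 5 CPM, and Aldoc, Ndrg1, Car9 and Epas1 did not. A gene was counted when both late libraries were at least 2-fold above, or below, both early ones. Over all cells, 4 genes were lower by this rule (Slc2a1, Slc2a3, Hk2 and Ndufa4l2), against 0.933% of the 9110 genes that reached the mean, and 1 was higher (Ldhb), against 2.84%. In other mesoderm, 5 were lower (the same 4 and Pfkp), against 1.15% of 9097 genes, and 1 was higher (Ldhb), against 2.69%. The median log2 difference between the late and early means was -0.93 for the set and 0.01 for all genes over all cells, and -0.89 and 0.07 in other mesoderm. Without E9.5 the counts of lower genes were 20 over all cells, against 2.47% of all genes, and 16 in other mesoderm, against 2.37%. Without E8.0 the count in other mesoderm was 9, against 1.45%. The counts in other mesoderm were 5 lower and 1 higher also without the cells that carried 2 or more neural crest or epithelial markers, which were at most 5.15% (E8.25) for neural crest and 0.660% (E8.25) for epithelium.

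Within the dissected regions the steps went in opposite directions. From E8.0 to E8.25, both from the upper body, 2 genes were at least 2-fold higher over all cells (Hk1 and Ndufa4l2, against 1.65% of genes) and 0 were lower (2.46%). In other mesoderm 1 was higher (Ndufa4l2, against 1.67%) and 0 were lower (1.93%). The median log2 difference was 0.36 for the set and -0.03 for all genes over all cells, and 0.43 and 0.01 in other mesoderm. From E9.5 to E10.5, 18 genes were at least 2-fold lower over all cells, against 2.61% of genes, and 0 were higher (2.34%). In other mesoderm the lower genes were 8 (Slc2a1, Slc2a3, Eno1, Ldha, Slc16a3, Bnip3, Ak4 and Ndufa4l2), against 1.26%, and 0 were higher (2.79%). The median log2 differences were -1.04 for the set and -0.20 for all genes over all cells, and -0.68 and 0.00 in other mesoderm. Blood was 13.6% of the cells at E10.5 and 0.0765% at E9.5, and with totals scaled by TMM (trimmed mean of M-values, which leaves out the genes with the most extreme ratios), the count over all cells was 11 lower genes instead of 18. The share of mitochondrial UMIs was higher at E10.5 (median 2.66% in other mesoderm) than at E9.5 (1.70%), and its part in these differences was not tested.

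Shares within enzyme families show which form carried each step. Each UMI is counted at the 3' end of 1 transcript, so a share is not scaled by transcript length. Ldhb made up 1.53%, 0.759%, 5.73% and 16.8% of the lactate dehydrogenase UMIs (Ldha and Ldhb) in other mesoderm over the 4 stages and 2.11%, 2.05%, 7.05% and 17.7% in the sarcomere compartment. In endothelial cells its share was 0.993%, 0.310%, 1.85% and 3.599%, and the binomial 95% interval at E10.5 (3.24 to 3.98%) was far below that of other mesoderm (16.5 to 16.97%). Eno3 took 8.39%, 8.14%, 12.5% and 18.1% of the enolase UMIs (Eno1 and Eno3) in the sarcomere compartment, 2.68%, 3.48%, 7.04% and 10.7% in other mesoderm and 1.77%, 1.87%, 1.44% and 1.37% in endothelial cells. The muscle enolase thus had a larger share at late stages in the first 2 and not in the third. Hk2 made up 96.8%, 95.2%, 88.3% and 79.4% of hexokinase UMIs in other mesoderm but 95.2%, 89.0%, 58.7% and 52.3% in the sarcomere compartment, 94.2%, 87.3%, 62.3% and 44.5% in endothelial cells and 61.8%, 53.0% and 8.30% in blood (at E8.0, E8.25 and E10.5). Hk2 was therefore the minor form in blood at E10.5 and the major form in other mesoderm in all 4 libraries.

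The phosphofructokinases stayed mostly of the liver form, with Pfkl at 92.7%, 89.7%, 92.4% and 87.8% of family UMIs in other mesoderm. In the sarcomere compartment Pfkl was 91.7%, 86.2%, 79.4% and 73.3%, as Pfkp took 3.91%, 7.13%, 14.5% and 15.7% and Pfkm 4.43%, 6.69%, 6.10% and 11.1%. Aldoc was at most 0.608% of aldolase UMIs in the compartments compared, a value reached in other mesoderm at E8.0. Slc2a3 was 18.5%, 23.5%, 17.9% and 15.2% of the UMIs of both glucose transporters in other mesoderm and 13.8%, 14.5%, 12.4% and 6.62% in the sarcomere compartment. Slc16a3 was 82.3%, 84.6%, 83.7% and 71.6% of the UMIs of both lactate transporters in other mesoderm and 76.8%, 80.2% and 41.9% in blood at E8.0, E8.25 and E10.5.

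**Figure D3:**
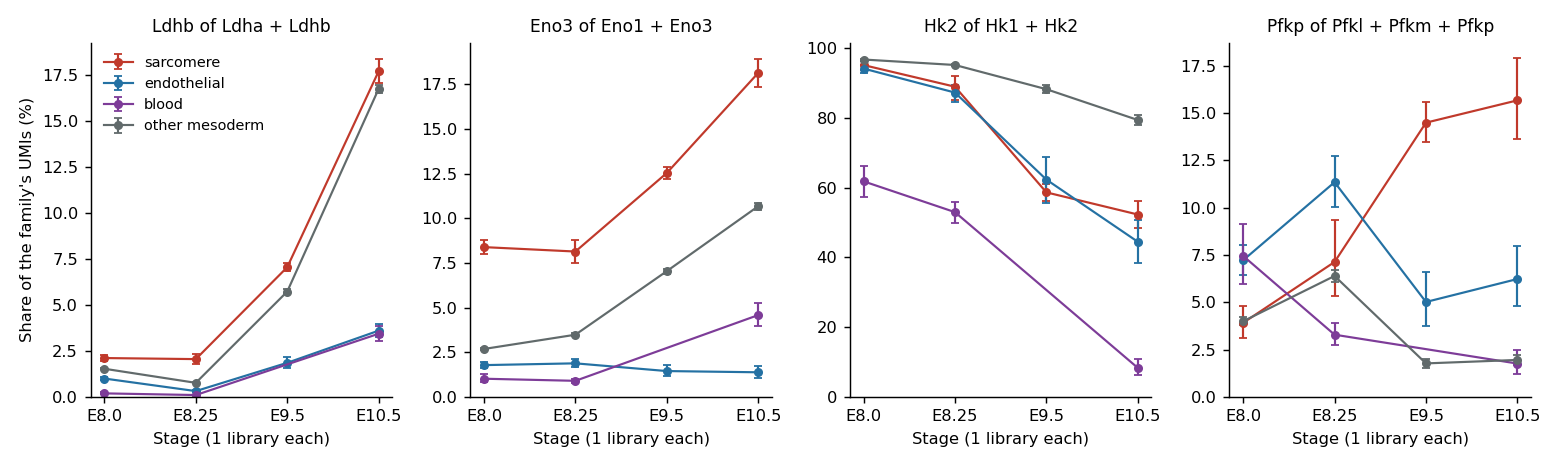
Share in percent (vertical axes, from 0) of Ldhb, Eno3, Hk2 and Pfkp among the UMIs of their enzyme family, by stage and compartment; points are single libraries, bars are binomial 95% intervals, and blood at E9.5 is left out. The Ldhb share is largest at E10.5 in each compartment, the Eno3 and Pfkp shares are largest at E10.5 in the sarcomere compartment, and the Hk2 share is smallest at E10.5.

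HIF binds the core ACGTG or GCGTG, and the stretch before the start of chosen genes of the set is shown to give the sequence around such letters. RefSeq promoter windows of the build GRCm38.p6 were found for 31 of the genes, and not for Slc2a3, Ndrg1, Ndufa4l2 and Epas1. ACGTG on either strand, overlapping CACGTG counted on both, occurred within 250 bases before a start of 19 of these 31 genes (61.3%), against 18.5% of 27025 genes with a window. GCGTG was found in 58.7% of the 46 windows of the set and in 28.2% of all 32851 windows. Base composition and the choice of the set, many of whose genes are known for HIF control, were not matched, and the counts are a description. In the sequences, written 5' to 3' along the gene, capitals mark ACGTG, read as CACGT where it lies on the other strand. The first 3 genes were lower at late stages (Slc16a3 by less than 2-fold between its closest libraries), Ldha was lower at E10.5 and Ldhb was higher at late stages. Pfkp, lower by the 2-fold rule and without ACGTG in its window, is not shown. The sequences shown therefore give no relation between ACGTG and stage. The window of Ldhb holds no ACGTG but 1 GCGTG, as does that of Slc2a1 beside its ACGTG, and GCGTG is not in capitals.
Slc2a1 (chr4:119108495-119108744, plus strand): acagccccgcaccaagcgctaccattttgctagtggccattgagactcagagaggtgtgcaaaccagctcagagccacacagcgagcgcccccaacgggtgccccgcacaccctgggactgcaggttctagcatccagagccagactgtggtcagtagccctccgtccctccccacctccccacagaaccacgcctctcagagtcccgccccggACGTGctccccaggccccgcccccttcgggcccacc
Hk2 (chr6:82774455-82774704, minus strand): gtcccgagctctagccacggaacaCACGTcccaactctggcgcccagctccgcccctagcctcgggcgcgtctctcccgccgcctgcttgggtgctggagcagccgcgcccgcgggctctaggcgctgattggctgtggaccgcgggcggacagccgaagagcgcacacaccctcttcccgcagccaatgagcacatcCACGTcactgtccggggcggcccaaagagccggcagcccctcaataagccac
Slc16a3 (chr11:120948817-120949066, plus strand): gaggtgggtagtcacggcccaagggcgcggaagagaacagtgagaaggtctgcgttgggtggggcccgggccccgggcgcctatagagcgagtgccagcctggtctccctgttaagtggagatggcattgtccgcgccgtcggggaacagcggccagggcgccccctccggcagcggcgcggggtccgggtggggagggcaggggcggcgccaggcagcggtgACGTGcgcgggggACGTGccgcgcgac
Ldha (chr7:46845554-46845803, plus strand): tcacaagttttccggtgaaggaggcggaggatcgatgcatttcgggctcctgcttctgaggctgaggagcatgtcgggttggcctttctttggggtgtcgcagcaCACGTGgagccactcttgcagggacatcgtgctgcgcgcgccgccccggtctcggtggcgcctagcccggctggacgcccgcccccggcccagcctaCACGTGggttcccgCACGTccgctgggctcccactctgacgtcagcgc
Ldhb (chr6:142507958-142508207, minus strand): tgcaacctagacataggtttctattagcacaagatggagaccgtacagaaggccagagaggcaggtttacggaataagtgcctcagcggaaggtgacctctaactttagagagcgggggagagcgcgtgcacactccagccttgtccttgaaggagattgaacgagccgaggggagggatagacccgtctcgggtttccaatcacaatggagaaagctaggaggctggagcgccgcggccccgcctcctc
The cores lie 36 bases before the start of Slc2a1, 226 and 52 before that of Hk2, 27 and 14 before that of Slc16a3, and between 145 and 34 before the first of the 2 starts of Ldha. The other members with ACGTG are Pfkm, Aldoa, Pgk1, Pgam1, Pkm, Pdk3, Slc16a1, Bnip3, Egln1, Egln3, P4ha1, Ak4, Car9, Ankrd37 and Hif1a. They include Pfkm, whose late levels in other mesoderm were above both early ones, and Pdk3 and Hif1a, whose early and late levels overlapped there. Those with a window but without it are Hk1, Gpi1, Pfkl, Pfkp, Aldoc, Tpi1, Gapdh, Eno1, Eno3, Ldhb, Pdk1 and Higd1a, of which Pfkp was lower by the 2-fold rule.

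Compartments were compared within libraries, since each library holds them all. The test was edgeR's quasi-likelihood fit on UMIs summed by library and compartment, with the library as a block and Benjamini-Hochberg adjustment over all genes tested. The block takes out the differences between libraries, so the p-values rest on how the compartment difference varies from library to library. Each library is another stage, so that spread is also one between stages. In the sarcomere compartment against other mesoderm (n = 4 libraries), 7 of 35 genes were higher, against 13.9% of 13800 genes tested, and 0 were lower, against 13.6%. None of the set was lower at an unadjusted p under 0.05 either, and DESeq2 gave 8 higher and 0 lower. Without the library as a block edgeR called 0 genes higher, against 4.86% of all genes, and in 1 fit of 4 compartments 4, against 12.1%. The median log2 fold change was 0.21 for the set and -0.03 for all genes.

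The genes that were higher in the sarcomere compartment were spread over the pathway, from hexokinase to lactate dehydrogenase. Hk1 stood at 6.52 CPM at E8.0 and 12.6 at E8.25, then 49.9 at E9.5 followed by 40.2 at E10.5, against 3.63, 6.81, 6.65 and 8.08 in other mesoderm, and was higher in 4 of 4 libraries (log2 fold change 1.84 ± 0.38 (SE), adjusted p = 0.016). Eno3 stood at 166 CPM at E8.0 and 202 at E8.25, then 302 at E9.5 followed by 211 at E10.5, and no library of the sarcomere compartment overlapped with other mesoderm (log2 fold change 1.19 ± 0.16 (SE), adjusted p = 0.0036). Ldhb was also higher in 4 of 4 libraries, though its range across stages overlapped with that of other mesoderm (log2 fold change 0.68 ± 0.13 (SE), adjusted p = 0.013). Smaller differences passed the test for Gpi1 (0.52 ± 0.15), Hif1a (0.51 ± 0.12), Ankrd37 (0.50 ± 0.14) and Pdk3 (0.34 ± 0.10). Slc2a1 was above other mesoderm in 4 of 4 libraries and did not pass (log2 fold change 1.11 ± 0.35 (SE), adjusted p = 0.058). Eno3 passed without any single library. Without E9.5 it was the only gene called higher, against 7.04% of all genes. Without E8.0 or without E10.5 4 genes were higher, against 11.4% and 11.1%, and without E8.0 these included Slc2a1 (adjusted p = 0.044 in edgeR) while Pkm was called lower (log2 fold change -0.24).

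**Figure D4:**
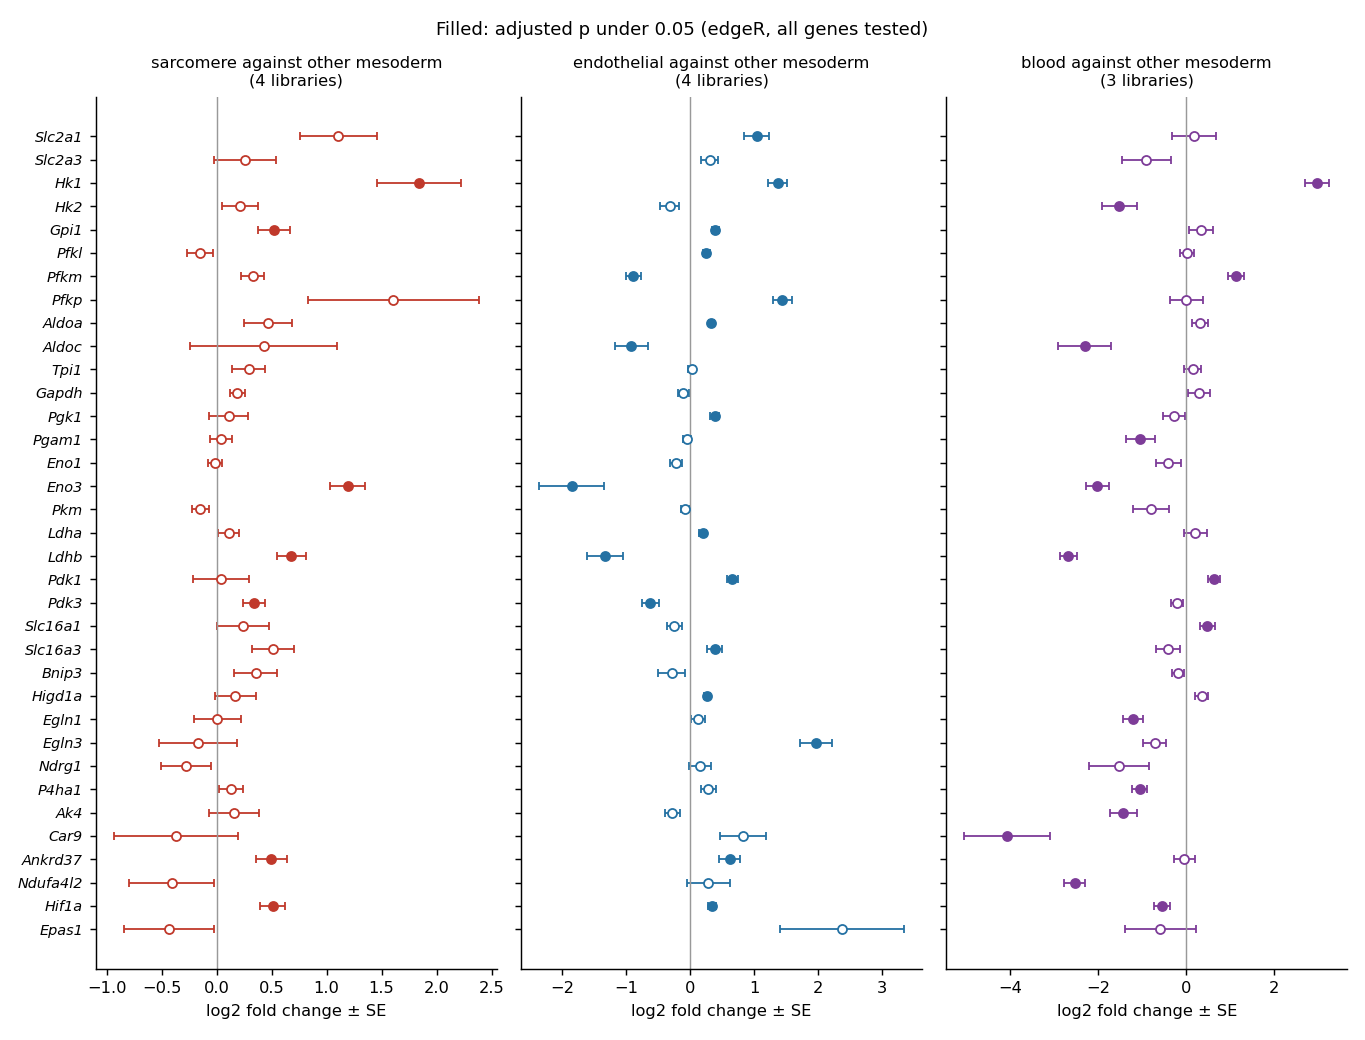
Log2 fold change ± SE (horizontal axes) of the 35 genes (in pathway order from the top) in the sarcomere, endothelial and blood compartments against other mesoderm, from edgeR over 4, 4 and 3 libraries. Filled points passed an adjusted p of 0.05, and the counts are 7 higher and 0 lower, 14 higher and 5 lower, and 4 higher and 11 lower.

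The contrast of the sarcomere compartment with other mesoderm differed between early and late libraries for some genes of the set. Its log2 ratios for Slc2a1 were 0.25, 0.34, 1.57 and 2.29, from the earliest library to the latest, and those for Pfkp were -0.23, -0.27, 3.43 and 3.17. At E9.5 Pfkp was 10.8-fold higher in the sarcomere compartment, and at E8.0 it was at 9.67 CPM there against 11.4. The other mesoderm levels of both genes were lower at late stages, while Pfkp in the sarcomere compartment was not (9.67, 16.3, 45.8 and 22.3). For Slc2a3 the log2 ratios were -0.26, -0.51, 0.95 and 0.95 and for Pdk1 -0.52, -0.62, 0.74 and 0.48, below 0 in both early and above 0 in both late libraries. Aldoa had 0.11, -0.21, 0.85 and 1.09, Slc16a3 0.20, -0.05, 0.78 and 1.12 and Hk1 0.85, 0.89, 2.91 and 2.31, with the late ratios above the early ones for each. For Pkm, in contrast, the ratios were 0.07, -0.26, -0.17 and -0.23, with no such step.

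This difference was tested as an interaction in edgeR, the contrast in the 2 late libraries less that in the 2 early ones, a test added after the data were seen. The contrast was higher at late stages for 8 of 35 genes (22.9%), against 0.768% of the 13800 genes tested, and lower for 0, against 0.514%. At an unadjusted p under 0.05 it was higher for 22 genes and lower for 1 (Eno3). The 8 genes were Pfkp (log2 difference 3.57 ± 0.21 (SE), adjusted p = 0.0027), Slc2a3 (1.34 ± 0.16 (SE), adjusted p = 0.017), Slc2a1 (1.64 ± 0.20 (SE), adjusted p = 0.02), Aldoa, Pdk1, Hk1, Aldoc and Slc16a3, the last 5 with log2 differences of 0.87 to 3.05. The median of the set was 0.66 and that of all genes 0.00. With gates halved 2 genes passed, against 0.358% of all genes, and with gates doubled 11 did, against 1.14%. Without E8.0 or without E8.25, which leaves 1 early library, 0 genes of the set passed, as did 0 and 5 of all genes, and the log2 differences of Pfkp were then 3.67 (adjusted p = 0.066) and 3.52 (adjusted p = 0.059). Without E9.5 15 passed, against 4.63% of all genes, and without E10.5 12, against 0.926%. The sarcomere compartment held only 89 cells at E8.25, and 50 of the cells of that library lay within 1.5-fold of its gate. Stage and dissected region cannot be told apart here either.

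**Figure D5:**
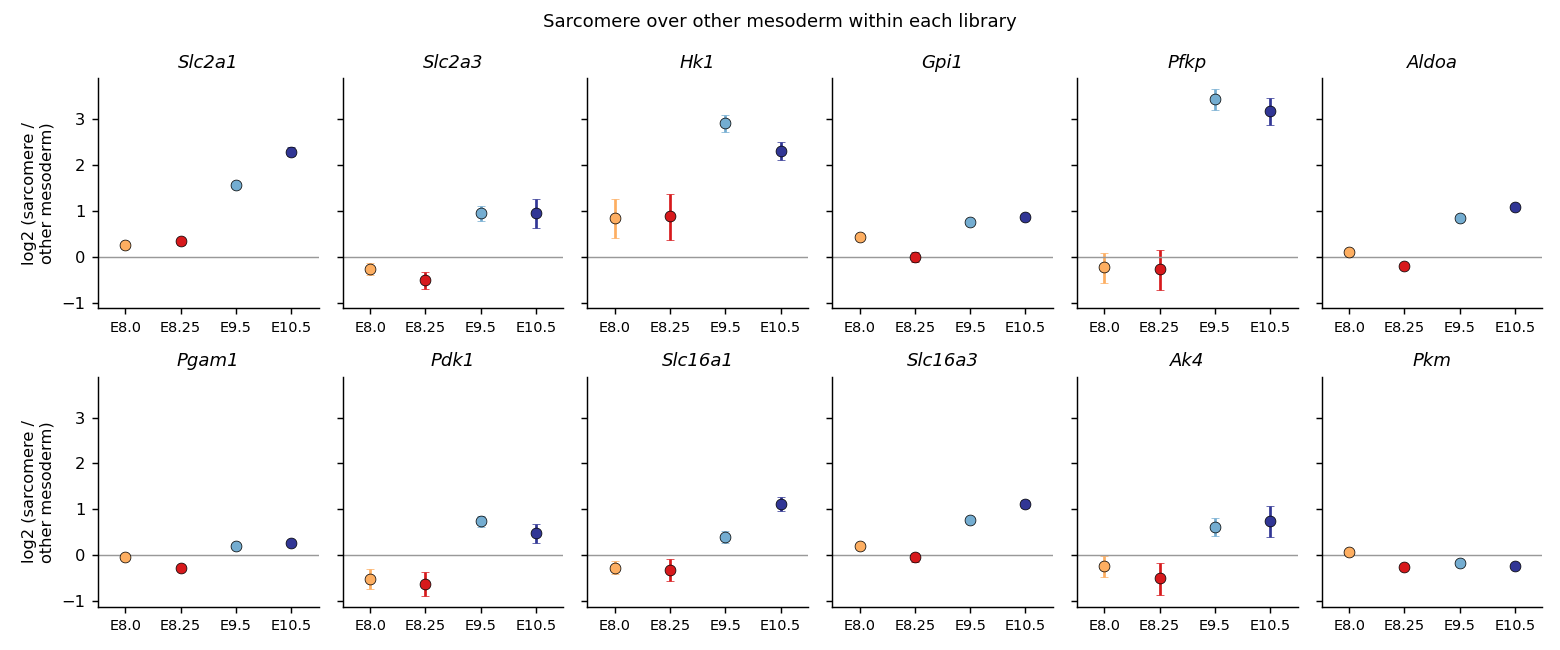
Log2 ratio of the sarcomere compartment over other mesoderm (vertical axes) in each library for 12 genes, with 95% binomial intervals from the counts. Slc2a1, Slc2a3, Hk1, Pfkp and Aldoa have both late points above both early ones, and Pkm does not.

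In endothelial cells more of the set was higher. Against other mesoderm (n = 4 libraries), 14 of 35 genes were higher (40.0%), against 21.3% of 13547 genes tested, and 5 were lower (14.3%), against 18.7%. Without the block 2 were higher and 3 lower, against 11.5% and 7.68% of all genes. In 1 fit of 4 compartments 5 were higher, against 17.4%, so that the share of the set was not above that of all genes under either. The median log2 fold change was 0.25 for the set and -0.02 for all genes. Egln3, a prolyl hydroxylase and HIF target, had the largest called difference, with 40.2 CPM at E8.0 and 53.3 at E8.25, then 18.6 at E9.5 followed by 10.1 at E10.5 against 16.2, 8.09, 4.43 and 4.01 in other mesoderm (log2 fold change 1.96 ± 0.25 (SE), adjusted p = 0.0018). Each library had more Egln3 in endothelial cells, but the ranges across stages overlapped. Slc2a1 was higher in 4 of 4 libraries, with 381, 615, 207 and 101 CPM (log2 fold change 1.04 ± 0.20 (SE), adjusted p = 0.0077), as was Hk1, with 6.74, 16.0, 21.3 and 19.5 (log2 fold change 1.37 ± 0.15 (SE), adjusted p = 0.00088). Pfkp, with 24.5, 41.6, 12.9 and 8.18, was higher in each library too (log2 fold change 1.44 ± 0.15 (SE), adjusted p = 0.00071). The pyruvate dehydrogenase kinase Pdk1 was also higher (0.66 ± 0.081), while Pdk3 was lower in 4 of 4 libraries with no overlap (-0.62 ± 0.13). Ankrd37 (0.62 ± 0.16), Gpi1 (0.39 ± 0.055), Slc16a3 (0.38 ± 0.11), Pgk1 (0.38 ± 0.069) and Hif1a (0.33 ± 0.062) had smaller differences. So had Aldoa (0.33 ± 0.042), Higd1a (0.27 ± 0.045), Pfkl (0.25 ± 0.053) and Ldha (0.19 ± 0.055), and Ldha kept its call in only 3 of 14 alternatives.

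The genes lower in endothelial cells included the muscle and heart forms. Eno3 stood at 28.6 CPM at E8.0 and 45.8 at E8.25, then 21.5 at E9.5 followed by 8.87 at E10.5 (log2 fold change -1.85 ± 0.51 (SE), adjusted p = 0.029), below every value of other mesoderm, and Ldhb at 32.4, 12.9, 45.1 and 50.3 (log2 fold change -1.33 ± 0.28 (SE), adjusted p = 0.012). Pfkm was at 4.36, 6.60, 7.87 and 5.96 CPM, also without overlap (log2 fold change -0.89 ± 0.12 (SE), adjusted p = 0.0022), and Aldoc was lower too (-0.93 ± 0.26). Without E9.5 2 genes were lower by the test, Pfkm and Pdk3, against 11.7% of all genes. Hk1, Pfkm and Pdk3 kept their call in each of the 14 alternatives run for this comparison.

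Epas1 separated endothelial cells from other mesoderm at late stages. Its level there was 1.67 CPM at E8.0 and 2.47 at E8.25, then 7.09 at E9.5 followed by 14.0 at E10.5, against 1.75, 1.65, 0.652 and 0.379 in other mesoderm, so that it was 36.9-fold higher at E10.5 and level at E8.0 (log2 ratio -0.07). Over the 4 libraries the difference did not pass (log2 fold change 2.37 ± 0.97 (SE), adjusted p = 0.097), but the late contrast exceeded the early one (4.18 ± 0.62 (SE), adjusted p = 0.006). That interaction was higher for 2 of 35 genes, Epas1 and Slc2a1 (0.90 ± 0.14 (SE), adjusted p = 0.0071), against 3.75% of 13547 genes. It was lower for 6, namely Eno3 (-2.42), Ldhb (-1.30), Bnip3 (-1.02), Eno1 (-0.45), Gapdh (-0.38) and Pkm (-0.31), against 4.84%. Bnip3 stood at 148, 235, 77.2 and 25.5 CPM in endothelial cells, above other mesoderm in both early libraries and below it in both late ones. Without E8.0 2 genes were lower by this test, against 1.33% of all genes, and without E9.5 10 were, against 6.88%.

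Blood cells were compared in 3 libraries, of E8.0, E8.25 and E10.5. In these cells 4 of 35 genes were higher (11.4%), against 19.4% of 13648 genes tested, and 11 were lower (31.4%), against 31.9%. The share that was lower is near that of all genes. Without the block 2 were higher and 4 lower, against 12.9% and 22.6%. The median log2 fold change was -0.40 for the set and -0.21 for all genes, and without TMM the median of all genes was -0.65 and the counts over all genes 1144 higher and 6137 lower instead of 2653 and 4353. Globins made up 4.60%, 11.2% and 45.8% of the UMIs of blood at E8.0, E8.25 and E10.5, which lowers the share left to other genes.

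Hk1, the hexokinase of red cells, had the largest increase. It stood at 35.8 CPM at E8.0 and 30.5 at E8.25, then 17.7 at E10.5 in blood, against 3.63, 6.81 and 8.08 in other mesoderm, with no overlap (log2 fold change 2.99 ± 0.27 (SE), adjusted p = 0.00051), and kept its call in each of the 13 alternatives. Pfkm was also higher (log2 fold change 1.14 ± 0.18 (SE), adjusted p = 0.0034), although its level in CPM, 17.5, 19.8 and 8.58, was below that of other mesoderm at E10.5. Pdk1 (0.64 ± 0.14) and Slc16a1 (0.49 ± 0.17) were higher as well, and both lost the call without TMM. In CPM, Pdk1 was above other mesoderm in 2 of 3 libraries and Slc16a1 in only 1 of 3. Pdk1 kept its call in 10 of 13 alternatives and Slc16a1 in 8. Ldhb was at 6.52, 3.58 and 10.3 CPM in blood (log2 fold change -2.68 ± 0.19 (SE), adjusted p = 0.00028) and Ndufa4l2 at 3.73, 9.54 and 0.249 (log2 fold change -2.52 ± 0.24 (SE), adjusted p = 0.0006). Eno3 (-2.01 ± 0.27), Aldoc (-2.30 ± 0.60), Hk2 (-1.51 ± 0.40), Ak4 (-1.42 ± 0.30) and Egln1 (-1.20 ± 0.22) were lower, as were P4ha1 (-1.05 ± 0.17), Pgam1 (-1.03 ± 0.33) and Hif1a (-0.54 ± 0.17). Car9 was lower too, on 1 UMI in blood, found at E8.25, so that no fold is given. At E10.5 its count was 0, and 3 UMIs would there be 0.107 CPM. Without E10.5 the counts were 10 higher and 17 lower, against 23.4% and 32.8% of all genes, and without E8.25 2 were higher, against 10.4%.

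In blood at E10.5 the glycolytic enzymes were a small part of all transcripts. Their share was 9.07-fold below that at E8.25, and 5.54-fold below it as a share of the UMIs that were not globin. On that second scale Pkm was 11.3-fold lower, Ldha 7.95-fold and Hk2 13.1-fold, while Hk1 differed by 1.05-fold. Blood was again 1 library per stage, and this step was not tested.

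Slc2a3, Tpi1, Gapdh, Eno1, Pkm, Bnip3, Ndrg1 and Epas1 were called in none of the 3 comparisons. The log2 fold changes of Pkm were -0.15 ± 0.076, -0.08 ± 0.074 and -0.79 ± 0.41 in the sarcomere, endothelial and blood compartments, those of Gapdh 0.19 ± 0.072, -0.11 ± 0.085 and 0.29 ± 0.25, and those of Eno1 -0.01 ± 0.063, -0.22 ± 0.10 and -0.40 ± 0.28.

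Neighbouring pathways gave a frame for these counts, with lists drawn up when earlier results of these data were known. As above, 13.9% of all genes tested were higher and 13.6% lower in the sarcomere compartment, 21.3% and 18.7% in endothelial cells, and 19.4% and 31.9% in blood. Of 26 genes of the tricarboxylic acid cycle and respiration, of which 24 or 25 were tested, 17 were higher in the sarcomere compartment, 12 in endothelial cells and 22 in blood. By edgeR 0 of them were lower in any of the 3 comparisons, 0 also at an unadjusted p under 0.05, and DESeq2 gave 0 as well. The largest differences in the sarcomere compartment were those of Cox6a2 (7.70 ± 0.14) and Cox7a1 (4.13 ± 0.62), subunits of cytochrome oxidase found in heart and skeletal muscle. Of 20 other glycolysis genes, of which 14 were tested (15 in blood), 4 were higher in the sarcomere compartment, led by Pgam2, the muscle form of phosphoglycerate mutase (6.07 ± 0.19), 3 were higher and 3 lower in endothelial cells, and 4 were higher and 4 lower in blood. Pklr, the pyruvate kinase of liver and red cells, led in blood (6.63 ± 0.49). Of 19 other hypoxia response genes, of which 19, 18 and 17 were tested, 2 were higher and 2 lower in the sarcomere compartment, 3 and 6 in endothelial cells, and 1 and 10 in blood. Adm, which encodes the vasodilator adrenomedullin, was higher in the sarcomere compartment (2.93 ± 0.12) and lower in blood (-3.22 ± 0.56). Of 7 genes of HIF control, all tested, 1 was higher in the sarcomere compartment, Cited2, which competes with HIF for its coactivator (1.24 ± 0.15). In endothelial cells 1 was higher and 1 lower, and in blood 2 were higher and 2 lower. Cited2 was also among those higher in blood (2.19 ± 0.25).

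By the 2-fold rule few genes of the same lists separated late from early libraries in other mesoderm. Few of all genes did so either (1.15% lower and 2.69% higher). Of the genes with a mean of 5 CPM or more there, 0 of 6 other glycolysis genes, 0 of 23 genes of the cycle and respiration and 0 of 5 genes of HIF control were counted, and 1 of 13 other hypoxia response genes was lower. That gene was Stc2, which encodes a secreted glycoprotein, named after its values were seen. From E8.0 to E8.25 in other mesoderm, 2 of the 13 other hypoxia response genes were higher, against 1.67% of all genes. Lower was 1 of them, against 1.93%, and the other lists had 0 in either direction. From E9.5 to E10.5 there, 0 genes of these 4 lists were lower, against 1.26% of all genes and 8 of the set. Higher were 2, against 2.79%, namely Vegfa, the main growth factor for blood vessels, and Arnt, the partner of HIF alpha. Both were also named after their values were seen.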

How the data were processed

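The deposited files are count matrices of UMIs per gene and cell, which the authors made from 10x Genomics 3' libraries with Cell Ranger, version 3.1.0 per the submitters' processing notes, on the mouse build mm10. No normalization had been applied to these counts. Barcodes with under 1000 genes or over 10% mitochondrial UMIs were dropped, and the highest Scrublet scores (0.8% of cells per 1000 cells) were removed as doublets, in Python 3.11.15 with scanpy 1.11.5. Cells were gated by 35 marker genes, none of which is in the set or among the tested genes. A gate needed at least 3 markers, with at least 10 sarcomere, 5 endothelial or 100 globin UMIs per 10000. Cells passing 2 gates and myeloid cells were set aside. UMIs were summed by library and compartment, and sums of under 20 cells entered no fit. Compartments were compared with edgeR 4.0.16 in R 4.3.3 (TMM, filterByExpr, quasi-likelihood test, Benjamini-Hochberg threshold 0.05) on both sums of each library. Each SE was derived from that test, as the absolute log2 value divided by the square root of its F statistic. Between stages, levels carry exact Poisson 95% intervals and ratios exact binomial ones, which cover counting error only. The scripts were tested on simulated data.

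The members and the lists of other genes were chosen with earlier results of these data known. All 35 members are named, and of the other lists at most the 4 genes with the largest called compartment differences. The alternatives were gates and cell filters, DESeq2 1.42.0, low-count filters, scaling, the block, folds and left-out libraries. The interaction of stage and compartment, the removal of cells with neural crest or epithelial markers and the scaling to UMIs that are not globin were added after the data were seen.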

Additional observations from a re-analysis of the deposited data

Results flagged for a closer look

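For 11 genes the log2 ratio of the sarcomere compartment over other mesoderm was below 0 in both early libraries and above 0 in both late ones, and for 5 of these the 95% counting interval of each library lay on that side of 0. For these 5 the late mean of the log2 ratio exceeded the early mean by 1.33 for Slc2a3, 1.18 for Pdk1, 1.05 for Slc16a1, 1.05 for Ak4 and 0.40 for Pgam1. In the edgeR interaction test Slc2a3 (adjusted p = 0.017) and Pdk1 (adjusted p = 0.030) passed, and Ak4 (adjusted p = 0.059), Slc16a1 (adjusted p = 0.082) and Pgam1 (adjusted p = 0.15) did not. By sign alone, the others were Pfkp, Aldoc, Higd1a, Egln1, Egln3 and Ndufa4l2. How many of all genes had the same sign pattern was not counted, so the counts of 11 and 5 are a description only.

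Over all members, that test found the sarcomere contrast in late libraries above that in early ones for 8 genes. The log2 difference was 3.57 for Pfkp, 3.05 for Aldoc, 1.75 for Hk1, 1.64 for Slc2a1, 1.34 for Slc2a3, 1.19 for Pdk1, 1.03 for Aldoa and 0.87 for Slc16a3. The 2 early libraries came from another dissection than the 2 late ones, and each lone early library left 0 calls.

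The endothelial contrast differed in the same test for 8 genes. It was higher in late libraries for Epas1 (4.18) and Slc2a1 (0.90), and lower for Eno3 (-2.42), Ldhb (-1.30), Bnip3 (-1.02), Eno1 (-0.45), Gapdh (-0.38) and Pkm (-0.31). Each stage was 1 library, so no group held enough samples for a check of single samples that stand apart.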

How the results depend on the processing

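Without the library block, which pairs the sums of each library, edgeR called 0 genes higher in the sarcomere compartment (7 with it), against 4.86% of all genes. In endothelial cells it called 2 higher and 3 lower (14 and 5 with the block), against 11.5% and 7.68%. In blood it called 2 higher and 4 lower (4 and 11 with the block), against 12.9% and 22.6%. In 1 fit of 4 compartments 4 were higher in the sarcomere compartment, against 12.1% of all genes, and 5 in endothelial cells, against 17.4%. Without TMM 8 were lower in endothelial cells, against 25.4% of all genes, and 2 higher in blood, against 8.38%. Pfkl in blood then reversed to -0.41. Leaving out each library gave 1 to 9 higher in the sarcomere compartment (7.04% to 11.4% of all genes) and 0 to 1 lower (4.76% to 10%). In endothelial cells it gave 2 to 6 lower (11.7% to 15.5%). In blood it gave 2 to 10 higher (10.4% to 23.4%) and 9 to 17 lower (22.1% to 32.8%), and Slc2a1 ranged from -0.51 to 0.97. Late against early, leaving out each library gave 1 to 2 higher (3.91% to 4.82% of all genes) and 4 to 20 lower (1.1% to 2.47%) over all cells. In other mesoderm it gave 1 to 2 higher (2.67% to 5.48%) and 6 to 16 lower (1.45% to 2.37%). The interaction ranged from 0 to 15 higher in the sarcomere compartment and 2 to 10 lower in endothelial cells, and gates halved left 2 of the former. At 1.5-fold, E8.25 against E8.0 gave 5 higher and 3 lower over all cells (4.28% and 7.67% of all genes). In other mesoderm it gave 7 and 2 (5.35% and 5.99%). E10.5 against E9.5 gave 1 higher and 16 lower in other mesoderm (7.88% and 4.17%), and late against early 11 lower there (2.61%). From E9.5 to E10.5 over all cells, 11 instead of 18 were lower with TMM-scaled totals, against 1.87% of all genes (2.61% without that scaling). The count was also 11 with the genes for haemoglobin, ribosomal proteins and mitochondria-encoded products left out, against 1.82%. Without cells with neural crest or epithelial markers, chosen after seeing the data, 1 gene was lower from E8.0 to E8.25 in other mesoderm. The share of all genes was not counted for that setting. The causes were not tested. Over the 3 compartment comparisons, 1285 of the single-gene results under alternatives kept their side of the threshold, 48 passed newly and 100 no longer passed. Another 2 reversed direction and passed in at least 1 of the settings compared. A change of direction in a result that passed in neither setting was counted among the 1285. With 1 library per stage, embryo-to-embryo spread was not measured, and depth limits what can be said of Car9, at under 1 CPM in other mesoderm.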
